A study of Mus musculus with 4 samples.

Results

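Of the 54021 gene symbols counted in the reconstituted ovaries (rOvaries), 33 were detected in the control grafts and almost absent from the grafts of INK128-treated recipients, and 0 showed the opposite pattern. A gene was chosen when its CPM (the count divided by the library total and multiplied by 1000000) was at least 2 in both libraries of 1 group and at most 0.2 in both libraries of the other. The 33 genes, 0.0611% of all symbols and 0.221% of the 14912 symbols at 2 CPM or more in both controls, were selected on these measured CPM, so their levels are given below as a description and without a test. In the opposite direction 0 of the 14606 symbols at 2 CPM or more in both INK128 libraries met the limits, a share of 0%.

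By the methods, the libraries came from aggregates of primordial germ cells with gonadal somatic cells of fetal female gonads, from C57BL/6 mice crossed with a line carrying actin-GFP, placed under the kidney capsule of ovariectomized C57BL/6 females. All recipients were 2nd-generation telomerase-deficient (G2 Terc-/-) mice of about 10 weeks. No Terc deficiency is given for the donor mice, and vessels, blood cells and surrounding tissue in a graft may come from the host. Terc itself, whose RNA lacks a poly(A) tail, had 1 count over the 4 libraries and does not serve as a check. INK128, an inhibitor of the mTOR kinase in both of its complexes, was given in the drinking water (30 μM in the methods, 0.75 μM per g in the labels) to the recipients of INK128 replicates 1 and 2, and the recipients of control replicates 1 and 3 received none. Grafts were collected 4 weeks after transplantation and sequenced as poly(A) RNA. No label says whether the 2 libraries of a group came from separate animals, so p-values measure only the spread between these samples, which for the INK128 pair may be technical. A graft held 1 aggregate or 2.

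Depth ranged from 19130209 to 23029089 counts per library, so that the lower limit of 0.2 CPM stood for 3.83 to 4.61 counts and the upper limit of 2 CPM for 38.3 to 46.1 counts. Of 9 granulosa cell genes, 8 had 21.5 CPM (Fshr) or more in every library, among them Foxl2 (361 and 348 CPM with INK128, 152 and 287 CPM in controls 1 and 3), while Amh ran from 5.30 CPM in control 3 to 455 CPM in control 1. The 2 controls, however, differed from each other. The 4 Y-linked marker genes summed to 47.3 CPM in control replicate 1 and to 0 to 0.105 CPM in the other 3 libraries, and 10 Sertoli cell genes summed to 2106 CPM there against 147 to 307 CPM elsewhere. The content of the library labelled control replicate 1 thus goes against a source in female gonads alone. In control replicate 3 the 12 oocyte genes summed to 36.8 CPM, against 1085 to 1482 CPM in the other 3 libraries. A gene had to pass in both controls to enter the set.

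A gene can reach such a pattern in bulk tissue when a cell type is missing or when its cells make less of the RNA, and fewer cells of a type and less RNA per cell cannot be told apart in these libraries. Many of the 33 genes are textbook products of specialised cells that are not part of a follicle. Multimerin 1 and the chemokine CCL21 are made by the endothelium of lymphatic vessels, and CCL21 guides immune cells that carry the receptor CCR7 toward those vessels. Tryptase, chymase and carboxypeptidase A3 are proteases stored in the granules of mast cells, while phosphate carriers, organic anion carriers and vitamin D hydroxylases serve the epithelium of the renal tubule.

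For 2 groups of members the sequence itself matters to what was counted. Gm10591 is annotated on mouse build mm10 (GENCODE release 21) at chr4:42612195-42612860, plus strand, as a coding gene of 4 exons, and is a copy of the chemokine gene Ccl21. The first 300 bases of its coding sequence are shown because this stretch is shared with other copies, with the start codon in capitals. Reads could also fall in the rest of the gene.
Gm10591: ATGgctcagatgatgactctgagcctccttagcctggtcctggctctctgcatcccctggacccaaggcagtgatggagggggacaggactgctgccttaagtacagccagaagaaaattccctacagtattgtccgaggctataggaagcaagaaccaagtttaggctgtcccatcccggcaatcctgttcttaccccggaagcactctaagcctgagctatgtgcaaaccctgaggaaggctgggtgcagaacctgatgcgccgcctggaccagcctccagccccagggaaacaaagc
All 402 bases of the coding sequence were identical to stretches of the transcripts of Ccl21b, Gm13304 and Gm21541 and differed from Ccl21a at 2 positions (A84T and T194C, counted from 1 at the first base of the start codon, the Gm10591 base first). A read inside the coding sequence therefore could not be assigned to 1 of the identical copies. Only a read over either of the 2 positions could tell Ccl21a from them, and the split between the copies is uncertain. The joining segment Igkj1 of the immunoglobulin kappa locus (chr6:70722562-70722599, plus strand) is the shortest member, and is printed in lower case beside its measured neighbour Igkj2 (chr6:70722916-70722958, plus strand).
Igkj1: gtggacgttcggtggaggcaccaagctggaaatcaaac
Igkj2: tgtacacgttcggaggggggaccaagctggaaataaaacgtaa
At 38 bases, Igkj1 is shorter than the 50-base windows used to look for shared sequence, so sharing with other segments was not measured for it.

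RefSeq (GRCm38.p6) gave a transcription start for 18 of the 33 genes, in 20 promoter windows. The 250 bases upstream of the start of the mast cell genes Cpa3 and Cma1 are shown, since the levels of these genes ran in parallel across the libraries, with matches to 3 short sequences in capitals. TATAAA is the sequence of the TATA box. AGATAA is contained in sites of GATA transcription factors, and GTTAAT in sites of the hepatocyte factor HNF1. Both strands were read, and no match to a sequence overlapped a match to another.
Cpa3 (chr3:20242182-20242431, minus strand): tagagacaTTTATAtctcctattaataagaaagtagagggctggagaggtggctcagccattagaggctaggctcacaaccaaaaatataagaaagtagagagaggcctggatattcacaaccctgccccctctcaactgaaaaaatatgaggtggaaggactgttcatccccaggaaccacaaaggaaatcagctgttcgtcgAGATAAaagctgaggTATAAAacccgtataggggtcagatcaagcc
Cma1 (chr14:55944676-55944925, minus strand): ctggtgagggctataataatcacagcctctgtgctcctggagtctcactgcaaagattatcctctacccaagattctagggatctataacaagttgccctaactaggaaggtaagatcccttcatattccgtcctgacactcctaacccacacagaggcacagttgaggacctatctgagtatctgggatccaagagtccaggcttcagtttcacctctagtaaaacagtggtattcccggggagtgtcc
The Cpa3 window held TATAAA at -31 and, as its reverse complement, at -242 from the start, and AGATAA at -46, while the Cma1 window held none of the 3 sequences. TATAAA occurred upstream of 4 of the 18 genes (Cpa3, D630029K05Rik, Hepacam2 and Slc22a22) and in 12.4% of all 32851 windows. AGATAA occurred upstream of 4 (Adgrg7, Cpa3, Gm4450 and Slc22a22) and in 9.99% of all windows, and GTTAAT upstream of 3 (D630029K05Rik, Gm4450 and Oxgr1) and in 6.43%. No sequence was common to the group.

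**Figure D1:**
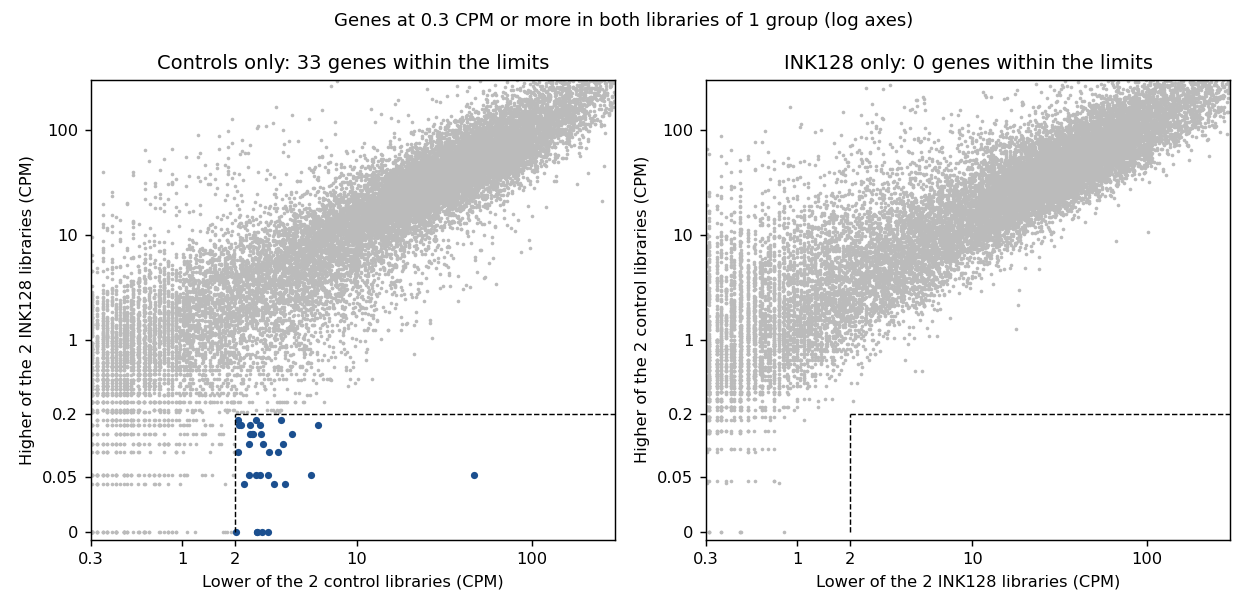
Each grey point is a gene at 0.3 CPM or more in both libraries of 1 group (axes logarithmic, ending at 300 CPM, 0 drawn at the lower edge); the lower library of that group is on the horizontal axis and the higher library of the other group on the vertical axis. The dashed box marks the limits of 2 and 0.2 CPM, which hold 33 genes (blue) for the controls and 0 for INK128.

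Within the INK128 libraries the 33 genes had at most 4 counts in 1 library and at most 6 over both. Of these, 5 had 0 counts in both (Ighv1-81, Ighv6-3, Muc16, Oxgr1 and Gm10591) and 22 had 3 counts or fewer over both. In the controls the lowest count of a member was 44, and the mean CPM ran from 2.69 to 86.5 with a median of 4.22. For the 28 genes with any INK128 count, the pooled CPM of the controls was between 22.8 and 3691 times that of INK128, with a median of 69.3. Intervals around these ratios cover counting error only, and with so few INK128 counts they are wide.

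**Figure D2:**
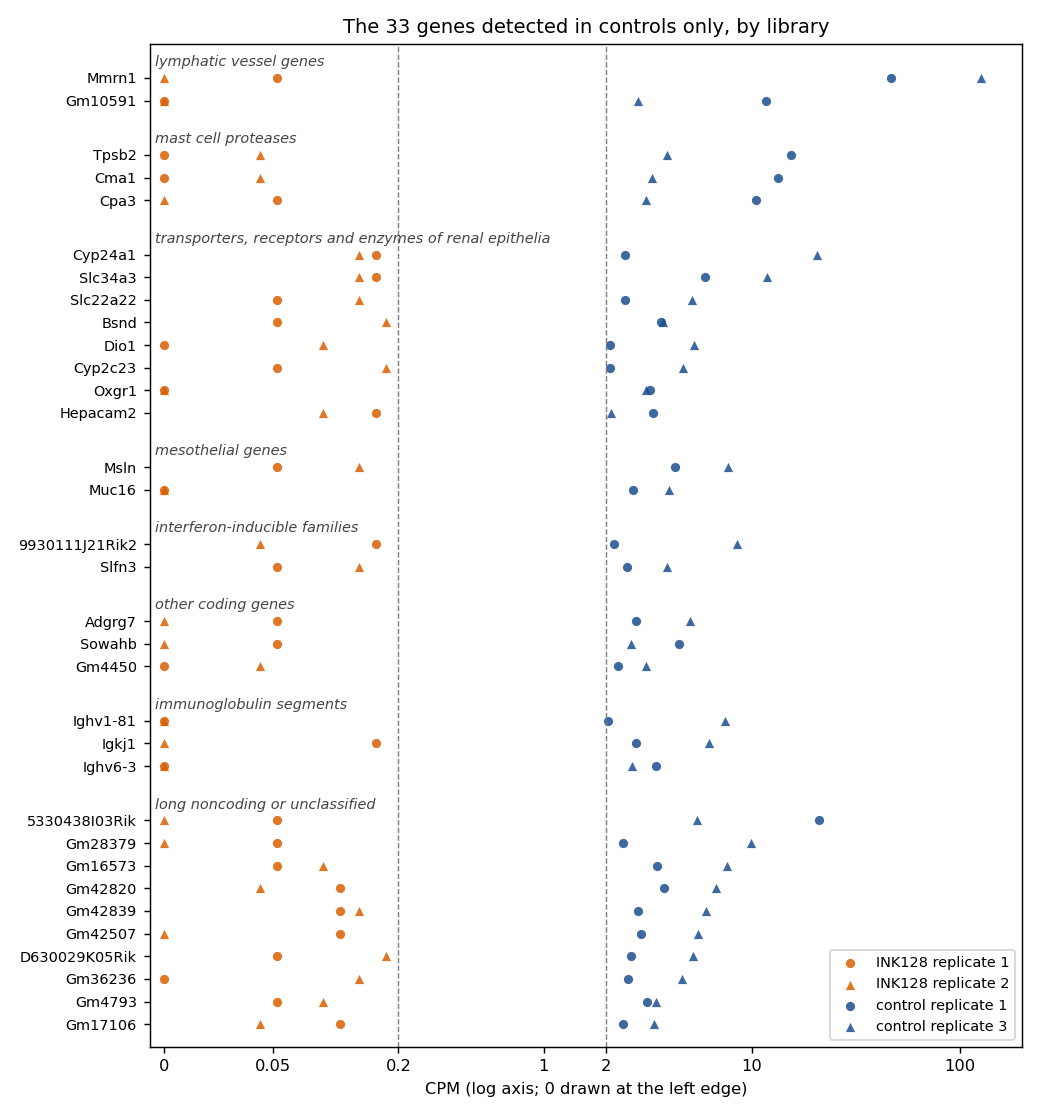
CPM of each of the 33 genes in the 4 libraries (logarithmic axis, 0 at the left edge), grouped by role; circles are replicate 1 of either group, triangles INK128 replicate 2 and control replicate 3, and dashed lines the limits of 0.2 and 2 CPM. Mmrn1 stands apart at 46.7 and 126 CPM in the controls, above all of the other 32 genes.

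Mmrn1 had the largest difference of the set. It encodes multimerin 1, a secreted glycoprotein of endothelium and platelets, and lies on chr6:60924976-60989378 (plus strand, 11 exons). It had 1 and 0 counts in INK128 replicates 1 and 2 against 1009 and 2878 counts in control replicates 1 and 3, or 0.0523 and 0 against 46.7 and 126 CPM. The pooled ratio was 3691 (95% exact binomial interval 662 to 145824). On the log2 scale this ratio was 11.85, and it was 10.71 without INK128 replicate 2, 10.94 without control replicate 3 and, at the floor of 3 counts, at least 9.39 without INK128 replicate 1, which held the only count. No 50-base window of the gene was shared with another gene. It was the only member with a mean over all libraries above 10 CPM, the filter of the test across genes.

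Of the 5 other genes on the lymphatic list, 4 were lower with INK128 but present. Across the 11758 genes with a mean above 10 CPM, edgeR's quasi-likelihood test called 375 genes lower with INK128 (3.19%) and 374 higher (3.18%). Lyve1, a hyaluronan receptor of lymphatic endothelium, had 3.45 and 3.39 CPM with INK128 and 62.8 and 73.5 CPM in the controls, and fell by 4.19 on the log2 scale (standard error 0.23, edgeR adjusted p = 0.0464). Flt4, the receptor for VEGF-C, fell by 2.68 (standard error 0.47, edgeR adjusted p = 0.0487), and Reln fell by 3.34 (standard error 0.50, edgeR adjusted p = 0.0464). Prox1, the transcription factor that sets lymphatic identity, had 1.31 and 0.651 CPM against 11.5 and 26.4 CPM and was below the filter of the test. Ccl21a, the fifth gene of the list, had 0 and 0 counts with INK128 and 14 and 15 counts in the controls. Without Mmrn1, all 5 genes of the list had both INK128 libraries below both controls, and they summed to 18.1 and 16.6 CPM with INK128 against 143 and 237 CPM. Of all 17631 genes with a mean of 1 CPM or more, 40.5% had both controls above both INK128 libraries and 25.9% had both INK128 libraries above. Lyve1, Prox1, Flt4 and Reln had 0.651 to 10.8 CPM in the INK128 libraries, in which Mmrn1 had 1 count in all. Without INK128 replicate 1 or without INK128 replicate 2 edgeR called 0 genes (1525 and 1338 at an unadjusted p under 0.05), although the log2 fold change of Lyve1 was then -4.20 and -4.21, and with a filter of 1 CPM it called 0 of 17631 genes (5797 unadjusted). DESeq2 called 1772 of the 11758 genes lower and 1595 higher, and edgeR with library totals alone called 627 lower and 293 higher.

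Gm10591, the CCL21 copy, had 0 and 0 counts with INK128 and 252 and 65 counts in control replicates 1 and 3 (11.7 and 2.85 CPM). Against a floor of 3 counts over both INK128 libraries it was at least 100-fold higher in the controls. The annotated copies Ccl21a, Ccl21b, Gm13304 and Gm21541 also had 0 counts in both INK128 libraries, and 5 copies together had 277 and 146 counts in the controls (12.8 and 6.40 CPM). Control replicate 1 was therefore higher than control replicate 3 for the copies as a sum, whereas Mmrn1 was higher in control replicate 3. Ccr7, the receptor for CCL21, had 0.836 and 1.09 CPM with INK128 and 0.371 and 2.41 CPM in the controls, so its groups overlapped.

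Mast cells are tissue-resident immune cells, and 3 of the 4 genes on the mast cell list were members, against 0.0611% of all symbols. The list was chosen with earlier results of these data known, so this count is a description and not a test. Tpsb2, a mast cell tryptase (chr17:25366305-25369098, plus strand), had 0 and 1 counts with INK128 against 335 and 89 in control replicates 1 and 3, or 15.5 and 3.90 CPM in the controls. Cma1, a chymase (chr14:55941451-55944675, minus strand), had 0 and 1 counts against 289 and 76 (13.4 and 3.33 CPM). Cpa3, a carboxypeptidase (chr3:20215620-20242181, minus strand), had 1 and 0 counts against 226 and 71 (10.5 and 3.11 CPM). All 3 were higher in control replicate 1 than in control replicate 3, with close ratios of control 3 to control 1 of 0.251, 0.249 and 0.297. Mcpt4, the chymase that completes the list, had 0 counts in both INK128 libraries and 8.20 and 1.71 CPM in the controls, just below the limit in 1 of them.

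Further mast cell genes were looked up after the members had been seen. Fcer1a and Ms4a2, subunits of the high-affinity IgE receptor, Tpsab1, Mrgprb1 and Mrgprb2 each had 0 counts in both INK128 libraries and, with Mcpt4, 244 and 63 counts in the controls. Mcpt4 alone had 177 and 39 of these, and each of the others had at most 25 counts in a control. Genes that mast cells share with other cells of the ovary were present in all 4 libraries, among them Kit (34.1 and 37.3 CPM in controls) and Hdc (13.5 and 14.9 against 55.2 and 20.1 CPM). Tpsg1, a tryptase gene that lies 0.174 kb from Tpsb2, went the other way, with 8.78 and 5.51 CPM with INK128 and 0.695 and 1.32 CPM in the controls.

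A group of 8 members encode proteins of renal tubule cells or are well known from them. Slc34a3, the sodium-phosphate cotransporter NaPi-IIc of the proximal tubule (chr2:25228898-25234364, minus strand), had 3 and 3 counts with INK128 and 129 and 270 in the controls (5.98 and 11.8 CPM), a ratio of 63.1 (interval 28.8 to 173). Cyp24a1, the mitochondrial hydroxylase that inactivates vitamin D (chr2:170482708-170497145, minus strand), had 3 and 3 counts against 53 and 471 (2.46 and 20.6 CPM), and the 2 controls differed 8.41-fold, the widest gap among the members. Of the exon bases of Cyp24a1, 2.33% lie within exons of Pfdn4 on the opposite strand, a gene that was not lower with INK128 (38.4 and 31.7 CPM against 17.9 and 18.0 CPM). Vdr, the vitamin D receptor that drives Cyp24a1 transcription, had 0.732 and 1.43 CPM with INK128 against 42.8 and 19.1 CPM in the controls, and fell by 4.69 (standard error 0.64, edgeR adjusted p = 0.0464). In control replicate 1, then, Vdr was higher and Cyp24a1 lower than in control replicate 3.

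The other 6 of this group had between 2 and 6 CPM in each control. Slc22a22, a prostaglandin-specific organic anion transporter, had 1 and 3 counts with INK128 and 53 and 118 in the controls. Dio1, the type 1 deiodinase that activates thyroid hormone, had 0 and 2 counts against 45 and 121. Cyp2c23, an arachidonic acid epoxygenase, had 1 and 4 against 45 and 107. These 3 were over 2 times higher in control replicate 3. Bsnd, or barttin, a chloride channel subunit, had 1 and 4 counts against 79 and 85, and Oxgr1, the receptor for 2-oxoglutarate, had 0 and 0 against 70 and 71, so the controls were alike for both. Hepacam2, a membrane protein found in intercalated cells of the collecting duct, had 3 and 2 counts against 72 and 48, with the smallest ratio of the set (22.8, interval 9.5 to 71.5).

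Kidney markers moved in the same direction as these members. Of 69 genes on 6 kidney lists, 61 had both INK128 libraries below both controls and 3 had them above. Among all genes with a mean of 1 CPM or more these shares were 40.5% and 25.9%. Some genes of the lists, such as Cldn16 and Aqp4, were below that level. The lists summed to 500 and 677 CPM with INK128 against 2058 and 3621 CPM. Of the 33 kidney genes in the edgeR test, 13 were called lower and 0 higher, against 3.19% and 3.18% of all genes tested (29 and 1 by DESeq2, against 15.1% and 13.6%), with a median log2 fold change of -3.69 against -0.03 for all genes tested. For the proximal tubule list alone, 29 of 31 genes had both INK128 libraries below both controls, against 40.5% of all genes (243 and 392 CPM in sum, against 1224 and 2820 CPM). Slc34a1, the main phosphate carrier of the proximal tubule and a relative of Slc34a3, fell by 4.67 (standard error 0.76, edgeR adjusted p = 0.0475), from 252 and 530 CPM to 6.85 and 21.1 CPM. The intercalated cell genes Foxi1 (5.47 and 2.41 CPM) and Slc4a9 (7.51 and 3.68 CPM) were, like Hepacam2, higher in control replicate 1. The grafts lay against the kidney, and the part of host kidney tissue in the difference of the 8 members was not tested.

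Msln and Muc16 are partners on mesothelial surfaces, where the mucin MUC16 binds mesothelin. Msln (chr17:25748613-25754378, minus strand) had 1 and 3 counts with INK128 and 92 and 175 in the controls, a ratio of 63.4 (interval 24.5 to 234). Muc16 (chr9:18495455-18674530, minus strand), with 86 exons the member with the most exon bases (26350), had 0 and 0 counts against 58 and 91, at least 47.2-fold higher in the controls. Both were higher in control replicate 3 than in control replicate 1, with ratios of 1.80 and 1.48. Of 7 other mesothelial genes, chosen after the values were seen, 6 had both controls above both INK128 libraries. Among all genes with a mean of 1 CPM or more the share was 40.5%. Upk3b had 0.836 and 3.08 CPM with INK128 against 28.2 and 22.4 CPM and Krt19 had 1.36 and 2.08 CPM against 15.1 and 14.1 CPM. Wt1, which granulosa and Sertoli cells also express, was well above these with INK128 (54.8 and 43.7 CPM, against 325 and 67.2 CPM in the controls). Mslnl, the paralogue of Msln, was under 1 CPM in all 4 libraries. The log2 fold change of Upk3b, -3.54, had a standard error of 0.70 and an edgeR adjusted p of 0.0526.

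Gene families known for induction by interferon gave 2 members. 9930111J21Rik2, a GTPase gene of the Irgb group, had 3 and 1 counts with INK128 and 47 and 194 in the controls. Its sequence is not unique, since 59.8% of its 50-base windows occur in other genes, chiefly 9930111J21Rik1 (0 and 1 counts against 16 and 77). Related genes were lower with INK128 but well above 0, as with Tgtp1 (2.30 and 1.35 CPM against 8.62 and 18.5 CPM) and Iigp1 (15.5 and 22.9 CPM against 43.5 and 121 CPM). Slfn3, a Schlafen gene of T cell quiescence, had 1 and 3 counts against 54 and 89. Slfn8 had 1.05 and 1.09 CPM against 4.35 and 11.0 CPM, whereas Slfn1 and Slfn4 overlapped between the groups.

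The 3 remaining coding members were Adgrg7, Sowahb and Gm4450. Adgrg7, an adhesion G protein-coupled receptor, had 1 and 0 counts against 60 and 115, a ratio of 166 (interval 29.4 to 6601). Sowahb, an ankyrin repeat gene of a single exon, had 1 and 0 counts against 97 and 60. Gm4450 had 0 and 1 counts against 49 and 71 and belongs to the 3β-hydroxysteroid dehydrogenase family, with which it shares 75.8% of its 50-base windows. Other genes of the family differed among themselves. Hsd3b2 (5 and 5 counts against 83 and 149) and Hsd3b3 (4 and 8 against 44 and 166) followed Gm4450, but Hsd3b1, the steroidogenic enzyme of the ovary, had 1965 and 2564 CPM with INK128 and 453 and 4378 CPM in the controls, with a log2 fold change of 0.03 (edgeR adjusted p = 0.985).

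Immunoglobulin segments made up 3 of the 33 members, and 27.3% of the 11 immunoglobulin or T cell receptor genes, constant regions included, at 2 CPM or more in both controls. Ighv1-81, a heavy chain variable segment, had 0 and 0 counts with INK128 and 44 and 170 in the controls. Ighv6-3 had 0 and 0 against 75 and 61. Igkj1, the kappa joining segment printed above, had 3 and 0 against 60 and 142, while the adjacent Igkj2 had 17 and 4 against 73 and 78. Each clone of antibody-producing cells uses its own rearranged segments. Over 360 variable and joining segments, of which 160 had any count, CPM summed to 13.1 and 4.65 with INK128 and to 45.2 and 155 in the controls. At 2 CPM or more, 29 segments were found in at least 1 control, 4 in both and 0 in an INK128 library. Of 10 immunoglobulin constant region genes, 4 (Igkc, Igha, Ighm and Iglc1) had both controls above both INK128 libraries, and 6 overlapped between the groups. The first share is close to the 40.5% of all genes with a mean of 1 CPM or more. None had both INK128 libraries above both controls, against 25.9% of those genes. Igkc had 12.7 and 3.47 CPM against 51.8 and 69.1 CPM (log2 fold change -2.80, standard error 0.65, edgeR adjusted p = 0.0625) and Igha 24.9 and 7.69 CPM against 63.1 and 96.3 CPM. Among those that overlapped, Ighg1 had 5.07 and 4.26 CPM with INK128 against 3.52 and 5.13 CPM and Ighg2b 7.95 and 3.30 CPM against 4.49 and 19.4 CPM. Ighg2c (4 and 0 counts against 3 and 152) and Iglc1 (2 and 0 against 13 and 75) were nearly absent with INK128. The B cell and plasma cell list summed to 34.4 and 16.6 CPM against 85.7 and 124 CPM. Both INK128 libraries were below both controls for 5 of its 9 genes, not far from the 40.5% of all genes with a mean of 1 CPM or more. Of these 5, Mzb1 and Pou2af1 were below that level, with at most 23 counts in a library, while Jchain, Ighm and Igkc were above it. The part of this list in the segment counts was not tested.

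**Figure D3:**
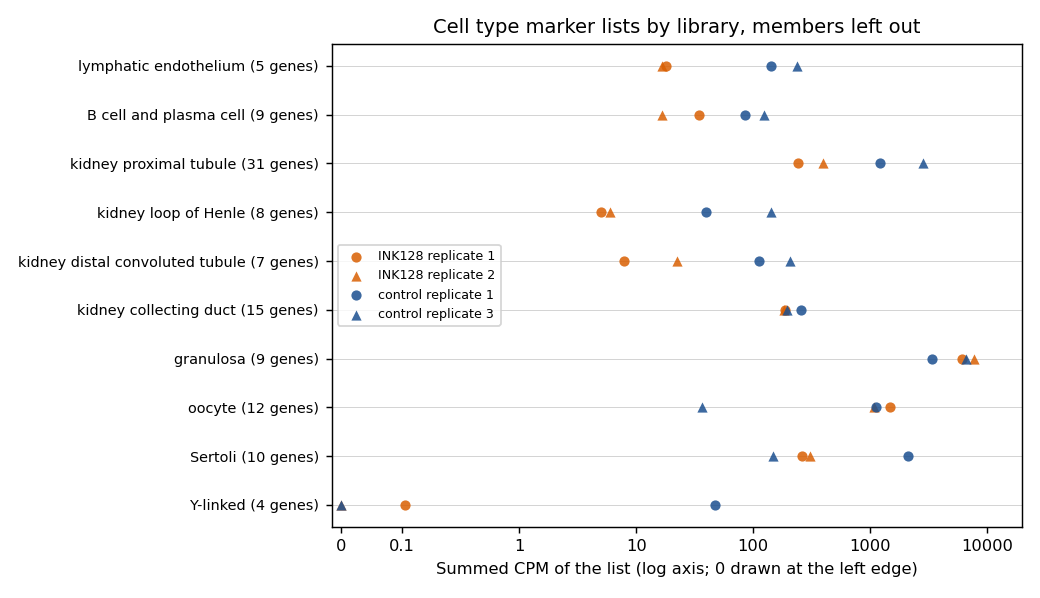
Summed CPM of 10 marker gene lists in the 4 libraries, with Mmrn1 left out of the lymphatic list (logarithmic axis, 0 at the left edge; symbols as by library). Both controls lie above both INK128 libraries for the lymphatic, B cell and plasma cell and all kidney lists drawn, narrowly for the collecting duct. The oocyte list is low only in control replicate 3, and the Sertoli and Y-linked lists are high only in control replicate 1.

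Long noncoding or unclassified genes gave 10 members, 0.808% of the 1237 such genes at 2 CPM or more in both controls, against 0.153% of 13094 coding genes. The classes were not matched for level, and the rule asks a larger fold difference of genes with a higher level. The part of level in these shares was not tested. Pseudogenes (364 at that level) and small RNAs (132) gave 0. Of the 10, 5 are annotated as antisense, 2 as transcripts to be experimentally verified, and 1 each as lincRNA, bidirectional promoter RNA and processed transcript. The class as a whole leaned the same way but far less: of 1388 noncoding genes at 2 CPM or more in both libraries of either group, 47.8% had both controls above both INK128 libraries, against 41.2% of all 15745 genes.

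For 9 of the 10 noncoding members, most of the exon bases lie inside a coding gene that was expressed in all 4 libraries, on the opposite strand in 8 cases. The strand setting of the counting is not given in the sources used here, so reads from a host gene and from an antisense partner cannot be told apart. 5330438I03Rik lies inside Ildr2 (chr1:166306741-166309585, minus strand) and had 1 and 0 counts with INK128 against 454 and 125 in the controls. Its host was also much lower with INK128 (7.16 and 5.21 CPM against 206 and 50.6 CPM, log2 fold change -4.26, standard error 0.78, edgeR adjusted p = 0.0507), and both were higher in control replicate 1. The other 7 hosts compared here had pooled control to INK128 ratios of 1.81 (Notch2) to 2.78 (Parp4).

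Gm16573 had 1 and 2 counts with INK128 and 76 and 174 in the controls, while its host Parp4 had 13.1 and 13.2 CPM against 35.7 and 37.4 CPM (fell by 1.35, standard error 0.21, edgeR adjusted p = 0.0464). Gm36236 had 0 and 3 counts against 55 and 105, and its host Kidins220 fell by 1.04 (standard error 0.16, edgeR adjusted p = 0.0464). Gm4793 had 1 and 2 counts against 68 and 79, and its host Nav1 fell by 1.15 (standard error 0.19, edgeR adjusted p = 0.0476). These 3 hosts were the ones called of the 8 compared, while 3.19% of all genes tested were called lower. The median log2 fold change of all genes tested was -0.03. Gm28379 had 1 and 0 counts against 52 and 226 within Herc1 (47.9 and 44.9 CPM against 68.5 and 117 CPM) and Gm42820 had 2 and 1 against 82 and 154 within Notch2 (63.5 and 56.3 against 123 and 93.5 CPM). Gm42839 had 2 and 3 counts against 61 and 138. Gm42507, within D5Ertd579e, had 2 and 0 counts against 63 and 126, and Gm17106, mostly within Lrch3, had 2 and 1 against 52 and 77.

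Because the rule selected RNAs that were almost absent with INK128, a smaller count relative to the host there follows from the selection, and only the controls are given. In them the member had 2.17% (Gm36236) to 15.4% (Gm16573) of the pooled count of its host, over the 8 pairs compared (Gm42839 left out). The remaining noncoding member, D630029K05Rik, is a lincRNA inside Gm10271, which had at most 1 count in a library. It had 1 and 4 counts against 57 and 119.

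**Figure D4:**
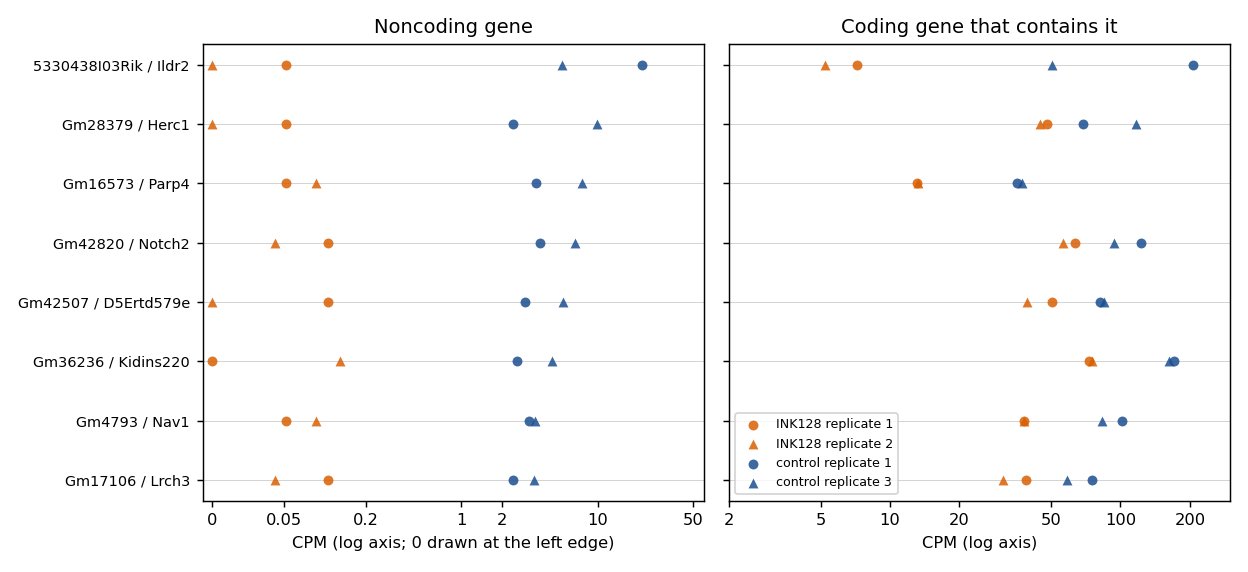
CPM of 8 of the 9 noncoding members that lie mostly inside a coding gene (left; Gm42839 not drawn) and of that gene (right) in each library, on logarithmic axes with different ranges. The members are at 0 to 0.13 CPM with INK128, while all hosts except Ildr2 have at least 13.1 CPM there.

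In genomic position the 33 genes were spread over 15 chromosomes, with at most 3 on any of them and 23 on the minus strand. With a gap of at most 500 kb between gene bodies, 4 members formed 2 clusters. Tpsb2 and Msln lie 380 kb apart on chromosome 17 with 13 measured genes between them. Of these, 6 were at 2 CPM or more in all 4 libraries and 1 of the 6, Sox8 (2.25 and 2.43 CPM with INK128, 64.5 and 2.67 CPM in controls), had both controls above both INK128 libraries. Cacna1h, for example, had 61.4 and 68.0 CPM with INK128 and 49.6 and 68.4 CPM in the controls, and Lmf1 had 25.4 and 31.0 against 25.6 and 23.5 CPM. Gm42820 and Gm4450 lie 321 kb apart on chromosome 3 with 7 genes between them. Among these, Phgdh had 108 and 106 CPM with INK128 and 96.1 and 38.6 CPM in the controls.

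The next pairs were Cma1 and Gm16573, 663 kb apart on chromosome 14, Bsnd and Dio1, 799 kb apart on chromosome 4, and Ighv6-3 and Ighv1-81, 1528 kb apart within the heavy chain locus on chromosome 12. The nearest measured genes with a mean of at least 1 CPM on both sides of the 33 members gave 66 values, and 28 of them (42.4%) had both controls above both INK128 libraries, against 40.5% of all 17631 genes at that level. Beside Gm4450, Hsd3b4 was one of them (0 and 0.0434 CPM against 0.695 and 4.52 CPM).

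The 2 controls differed in their levels of the members. Of the 33 genes, 24 (72.7%) were higher in control replicate 3 and 9 in control replicate 1, while 52.1% of the 14912 genes at 2 CPM or more in both controls were higher in control replicate 3. The controls were over 2-fold apart for 48.5% of the members, against 15.9% of those genes. The median ratio of control 3 to control 1 was 1.80 for the members and 1.02 for all these genes, and its 95% interval held 1 for 6 members. By role, the 3 mast cell proteases were all higher in control replicate 1, 6 of the 8 renal genes and 9 of the 10 noncoding genes in control replicate 3, and the 2 lymphatic genes were split.

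**Figure D5:**
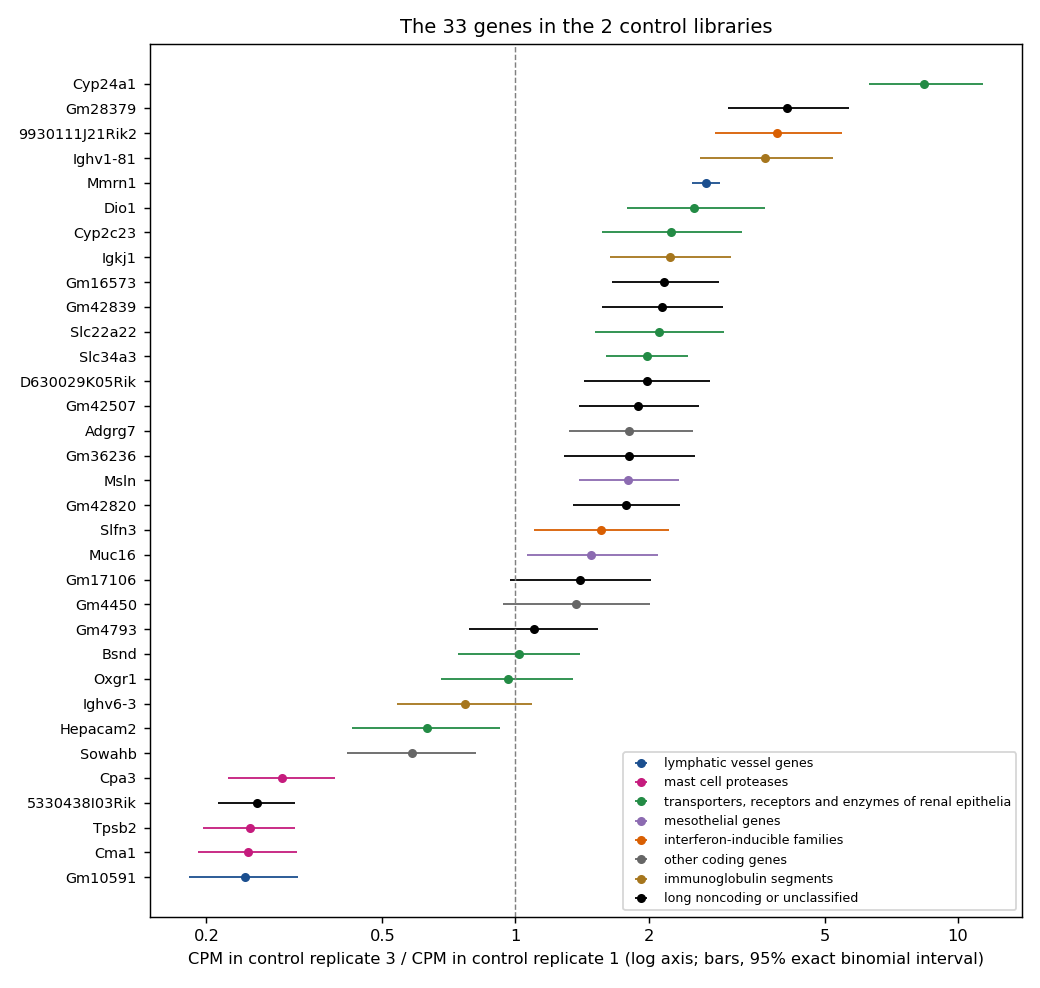
Ratio of CPM in control replicate 3 to control replicate 1 for each of the 33 genes (logarithmic axis), with 95% exact binomial intervals that cover counting error only; colours give the role. The ratio runs from 0.244 for Gm10591 to 8.41 for Cyp24a1, and the mast cell proteases lie together between 0.249 and 0.297.

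Levels can be compared between genes only per length. Igkj1, with 38 bases, is too short for a value per length, and that of Gm10591 (18.1 CPM per kb of exon) rests on an uncertain split between copies. Among the others, the mean CPM per kb over the controls was highest for Mmrn1 (14.7) and Ighv1-81 (13.5) and lowest for Muc16 (0.127). The members were short genes: their median exon length was 2555 bases, against 4160 bases for all genes at 2 CPM or more in both controls, and for coding genes alone 2727 against 4515 bases.

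Genes just outside the limits show how the set ends. Inside the lower limit were Bsnd, Cyp2c23 and D630029K05Rik, each at 0.174 CPM (4 counts) in INK128 replicate 2. Just outside were Ces2c, E130215H24Rik and Clrn3, each at 0.209 CPM (4 counts) in INK128 replicate 1. Inside the upper limit were Ighv1-81 (2.04 CPM), Cyp2c23 and Dio1 (2.08 CPM each), and just outside were Ap1s3 and Trpv5 (1.99 CPM each, in control replicate 1). Trpv5, an epithelial calcium channel of the distal tubule, had 0 counts in both INK128 libraries. In the opposite direction the closest gene was Foxa3, a forkhead transcription factor, with 2.25 and 2.08 CPM with INK128 and 0.232 and 0.263 CPM in the controls (5 and 6 counts), and then Gm13611 and Mir5136, each with 0.395 CPM in control replicate 3. Among genes at or under 0.2 CPM in both controls, 4930425L21Rik came nearest to the upper limit, with 1.10 and 1.52 CPM with INK128.

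The limits set the size of the set but not its direction. With a lower limit of 0.5 CPM there were 142 genes for the controls and 4 for INK128, and with an upper limit of 1 CPM there were 83 and 1. Without control replicate 1, which holds the Y-linked and Sertoli signal, 70 genes were detected only with INK128, and without control replicate 3, which has little oocyte RNA, 9 were. In each case more genes, up to 145, were detected only in the remaining control. The 70 were led by Cyp21a1, Dppa5a and Tnxa and the 9 by Cyp11b1, Mc2r and Kcns2. Cyp21a1 and Cyp11b1 are on the adrenal cortex list, which summed to 39.5 and 112 CPM with INK128 against 5.51 and 4.91 CPM in the controls. Of its 4 genes, 3 had both INK128 libraries above both controls and 0 had them below. Among all genes with a mean of 1 CPM or more these shares were 25.9% and 40.5%. The source of this signal was not tested. All 33 genes remained in the set under each of these changes, since leaving out a library or widening a limit can only add genes.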

How the data were processed

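RNA-seq of rOvaries was analysed in 2 INK128 and 2 control libraries. Per the methods and labels, the authors used Trimmomatic for trimming, HISAT2 for alignment to mm10 and featureCounts for counting under an annotation named RefGene. Versions and the strand setting are not given in the sources used here. The authors deposited raw counts per gene symbol, without normalization or pooling.

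CPM were computed as count over column total. Members were genes at 2 CPM or more in both libraries of 1 group and at 0.2 CPM or less in both of the other. The members, marker lists and gene lists were chosen with earlier results of these data known. Named genes were the 20 members with the highest control mean, members in clusters, marker lists or set gene classes, and those nearest to each limit. Gm36236, Sowahb, Muc16, Gm4793, Slfn3, Oxgr1, Gm17106 and Hepacam2, the related genes and the grouping by role were chosen after their values were seen.

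Positions and gene types came from GENCODE release 21, which lists 53447 of the symbols by name. A member shared sequence where any 50-base window of its transcripts occurred in a transcript of another gene. Ratios carry 95% exact binomial intervals, or a floor of 3 counts over a group at 0, which cover counting error only.

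Other genes were tested with edgeR 4.0.16 in R 4.3.3 (TMM, quasi-likelihood, Benjamini-Hochberg adjustment) where the mean exceeded 10 CPM, in 11758 genes, and called at an adjusted p under 0.05 and a fold change above 1.5. The script was tested on simulated data. The alternatives were DESeq2 1.42.0, other scalings, limits, filters and gaps, and leaving out each library. A few genes are not reported here.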

Additional observations from a re-analysis of the deposited data

How the results depend on the processing

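No paired analysis was possible because the groups share only replicate number 1. With TMM or DESeq2 scaling 30 of the 33 genes remained, Dio1, Ighv1-81 and Cyp2c23 falling just below 2 CPM, and 0 genes were detected only with INK128. Requiring 0 counts left 5 genes and 5 CPM left 3. A lower limit of 0.5 CPM gave 142 and 4, and an upper limit of 1 CPM 83 and 1, for controls and INK128. Without 1 library the counts ran from 56 to 145 and from 0 to 70. Clustered members numbered 0 at 100 kb, 8 at 1 Mb and 2 without members that overlap another measured gene. The 374 higher and 375 lower edgeR calls became 1595 and 1772 with DESeq2, 360 and 378 with relative log expression factors, 293 and 627 with library totals, 0 and 0 with a mean above 1 CPM, and 1152 and 1953 with at least 1 count, and ran from 0 to 2664 and from 0 to 2723 without 1 library. The adjusted p of the calls lay close to the threshold. The causes were not tested. Of the 28 members with a counting interval, Cyp24a1 left it without control replicate 3. INK128 replicate 2 held the only count of Tpsb2, Cma1 and Gm4450, so without it their values were lower bounds at the floor of 3 counts. These bounds lay below the intervals, which does not show that the ratios left them. The bounds of the 5 members at 0 counts moved by over 1.5 times in 14 values, each without 1 library. At 0.2 CPM a library holds 3.83 to 4.61 counts, so the INK128 levels carry a large counting error.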
